A study of Mus musculus with 187 samples.

Results

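The 10 genes described here form the core of the circadian clock, and their rows were read from the deposited table of gene counts by name. They were the activators Arntl, Clock and Npas2, the repressors Per1, Per2, Per3, Cry1 and Cry2, the nuclear receptor Nr1d1 and the output factor Dbp. All 10 were among the 36558 genes of the table and among the 15942 genes with enough counts to test. Hearts came from mice of the HMDP, a panel of genetically distinct strains bred for mapping traits, and were profiled by RNA sequencing in 98 male and 89 female libraries. All mice had eaten chow for 8 weeks and then a diet rich in fat and sucrose (HF/HS) for another 8 weeks, so that no library of another diet served as a control, and they were 16 weeks old. There was 1 library per strain and sex except in 3 cases with 2 libraries. A strain therefore had no replicate within a sex, and p-values measure the spread between single mice. Recombinant inbred lines made up most of the panel (45 BXD, 20 AXB/BXA, 6 CXB and 6 BXH), the 29 remaining strains were inbred, and 78 strains had both sexes. Some strain labels name alleles, as in the BXD24/TyJ-Cep290<rd16>/J male, counted here with BXD, and in BTBR T<+> tf/J. The mice were kept under a light-dark cycle, and the sample labels give no hour of collection. Each sample title carries a number whose meaning the labels do not give.

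The circadian clock is a feedback loop of transcription present in nearly every cell, the cardiomyocyte included. ARNTL (also called BMAL1) pairs with CLOCK or with its relative NPAS2 and activates genes that carry E-boxes, among them those of the PER and CRY proteins, which return to block the activators. NR1D1 (REV-ERB alpha) represses Arntl through the elements that ROR receptors also bind, and DBP acts on D-boxes in clock and metabolic genes. In heart and other tissues Arntl and the Per genes peak at nearly opposite times of day, with Nr1d1, Dbp and Cry1 at times of their own.

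Some of these known elements can be seen in part of the promoter windows, which are shown as a description. RefSeq windows from 250 bases before to 50 bases after a gene start, build GRCm38.p6, were found for 9 of the 10 members (13 windows), and were searched on both strands for the E-box CACGTG, its variant CACGTT, the D-box TTATGTAA and the elements TAGGTCA and TGGGTCA bound by ROR and REV-ERB receptors. No motif searched for overlapped another in the windows below. Positions count from 1 at the 5′ end of the window, and capitals mark the matches.
Arntl, chr7:113207261-113207560, plus strand, TAGGTCA at 281 to 287: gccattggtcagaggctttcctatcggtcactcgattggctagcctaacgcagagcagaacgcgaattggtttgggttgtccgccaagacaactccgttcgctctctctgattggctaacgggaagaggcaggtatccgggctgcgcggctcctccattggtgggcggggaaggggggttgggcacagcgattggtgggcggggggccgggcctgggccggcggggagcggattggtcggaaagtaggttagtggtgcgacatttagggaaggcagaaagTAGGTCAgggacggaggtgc
Per1, chr11:69098699-69098998, plus strand, CACGTG at 85 to 90: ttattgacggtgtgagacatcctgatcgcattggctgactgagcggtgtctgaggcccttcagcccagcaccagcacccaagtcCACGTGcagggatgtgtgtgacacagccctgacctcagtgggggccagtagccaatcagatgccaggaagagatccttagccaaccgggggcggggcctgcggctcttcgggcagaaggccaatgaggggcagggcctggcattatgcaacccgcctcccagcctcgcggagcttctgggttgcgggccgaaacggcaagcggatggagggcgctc
Per3, chr4:151044616-151044915, minus strand, TTATGTAA at 46 to 53 and at 93 to 100: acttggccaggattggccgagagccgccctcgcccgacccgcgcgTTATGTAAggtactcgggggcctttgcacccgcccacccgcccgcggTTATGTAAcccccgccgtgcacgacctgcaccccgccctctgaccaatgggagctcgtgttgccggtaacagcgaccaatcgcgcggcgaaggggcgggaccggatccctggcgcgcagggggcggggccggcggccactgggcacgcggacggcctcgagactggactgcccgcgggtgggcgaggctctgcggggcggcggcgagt
Cry1, chr10:85185005-85185304, minus strand, CACGTG at 191 to 196 and AACGTG upstream of it: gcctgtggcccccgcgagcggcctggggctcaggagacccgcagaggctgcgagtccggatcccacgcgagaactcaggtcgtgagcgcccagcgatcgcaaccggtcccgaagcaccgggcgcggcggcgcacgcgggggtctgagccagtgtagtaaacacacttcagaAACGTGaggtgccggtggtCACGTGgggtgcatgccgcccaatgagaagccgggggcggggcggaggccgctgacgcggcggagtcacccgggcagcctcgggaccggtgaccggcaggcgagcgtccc
AACGTG is CACGTT read on the other strand, and single matches to it also lay in the windows of Cry2 (positions 85 to 90) and Nr1d1 (223 to 228). No window of Clock, Npas2 or Dbp held any of these letters, nor did the other window of Arntl or that of Per1. Of the 32851 windows counted, 7.15% held CACGTG, 4.68% CACGTT, 0.938% TTATGTAA, 2.61% TAGGTCA and 3.98% TGGGTCA. Windows of 1 chromosome that holds no member were left out of this count. Of the 13 member windows, 2 held CACGTG, 3 CACGTT, 1 TTATGTAA and 1 TAGGTCA, and none held TGGGTCA. Whether these matches relate to the levels was not tested.

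The libraries held 28.99 M to 80.4 M estimated counts. The heart label was checked against 8 cardiomyocyte genes, all of them detected, which together took 42759 to 88166 CPM (counts scaled to a common library size) in a library. Markers of other cells were present as well, with 341 to 33425 CPM for 5 blood genes, 216 to 2043 CPM for 5 fibroblast genes, 0.413 to 867 CPM for 6 adipocyte genes and 0 to 53.96 CPM for 4 lung genes. Correlations of the members with the mean level of these lists, with the depth and with the mtDNA-encoded share lay between -0.26 and 0.29, except for Clock, which had r = 0.40 with the fibroblast genes, -0.39 with the cardiomyocyte genes and 0.31 with the scaling factor of the library. In bulk heart RNA, fewer cells of a type and less RNA per cell cannot be told apart.

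The members differed greatly in how far their levels spread over the hearts. Dbp, Per2, Arntl, Per1, Per3 and Npas2 varied more than most genes in the heart, whereas Nr1d1, Clock, Cry2 and Cry1 had ordinary spreads. On log2 CPM within sex, the SD was 1.06 for Dbp, 0.97 for Per2, 0.91 for Arntl, 0.78 for Per1, 0.72 for Per3 and 0.70 for Npas2, which put them at the 87.6th to 94.8th percentiles of all genes tested. The SD of the remaining members was 0.36 for Nr1d1, 0.31 for Clock, 0.30 for Cry2 and 0.28 for Cry1, at the 44.6th to 59.7th percentiles, and the median gene had 0.307. Counting error made up little of it, since it came to 0.0209 to 0.122 on the log2 scale.

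Among the activators, Arntl (ENSMUSG00000055116, chr7:113207465-113314126) encodes the partner without which the loop stops. Its lowest, median and highest levels were 0.869, 10.4 and 33.4 CPM, a 38.4-fold range. The lowest library was a BALB/cJ male and the highest a CXB12/HiAJ female. Npas2 (ENSMUSG00000026077, chr1:39193731-39363236), which can stand in for Clock, ranged from 0.662 through 3.85 to 10.2 CPM, or 15.3-fold. Its highest library was the same CXB12/HiAJ female. Clock (ENSMUSG00000029238, chr5:76209868-76304792), whose protein is also a histone acetyltransferase, ranged from 15.9 through 49.4 to 70.8 CPM, or 4.46-fold, and its distribution had a tail of low libraries (skewness -1.80).

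The repressors fell into a wide and a narrow group. Per1 (ENSMUSG00000020893, chr11:69095217-69109960), also induced by light and by glucocorticoids, had a lowest, median and highest level of 4.31, 25.3 and 78.95 CPM (18.3-fold). Per2 (ENSMUSG00000055866, chr1:91415982-91459324), a Period gene whose loss disturbs the rhythm, had 1.56, 6.87 and 34.04 CPM (21.9-fold). Per3 (ENSMUSG00000028957, chr4:151003652-151044665), which is dispensable for the loop, had 3.44, 17.8 and 57.4 CPM (16.7-fold). The lowest libraries of Per1 and Per3 were the CXB12/HiAJ female that was highest in Arntl and Npas2. The Cryptochromes, the strongest inhibitors of the activator pair, moved little by comparison. Cry1 (ENSMUSG00000020038, chr10:85131700-85185064) had 3.17, 5.43 and 11.3 CPM (3.54-fold). Cry2 (ENSMUSG00000068742, chr2:92403646-92434043) had 14.03, 25.2 and 44.6 CPM (3.18-fold).

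Dbp (ENSMUSG00000059824, chr7:45705088-45710203), a direct E-box target, had the widest range of the members. Its lowest, median and highest levels were 2.67, 46.2 and 203 CPM, or 75.8-fold, from an SM/J female to a BXD9/TyJ male. Nr1d1 (ENSMUSG00000020889, chr11:98767932-98775333), also an E-box target, had 44.1, 113.4 and 181.9 CPM, or 4.13-fold, and its lowest values formed a tail (skewness -1.15). Exons of Dbp share 539 bases with the antisense gene Sphk2 and those of Nr1d1 share 263 bases with the antisense gene Thra. Exons of Cry2 share 295 bases with the antisense gene D930015M05Rik and those of Arntl 33 with the antisense gene Gm45355, for which no counts were used here. Strand use in the counting is not given in the sources used here, so reads from these stretches cannot be told apart. Sphk2 stayed within 10.1 to 22.4 CPM (r = -0.42 with Dbp) and Thra within 56.1 to 100.5 CPM (r = 0.25 with Nr1d1).

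**Figure D1:**
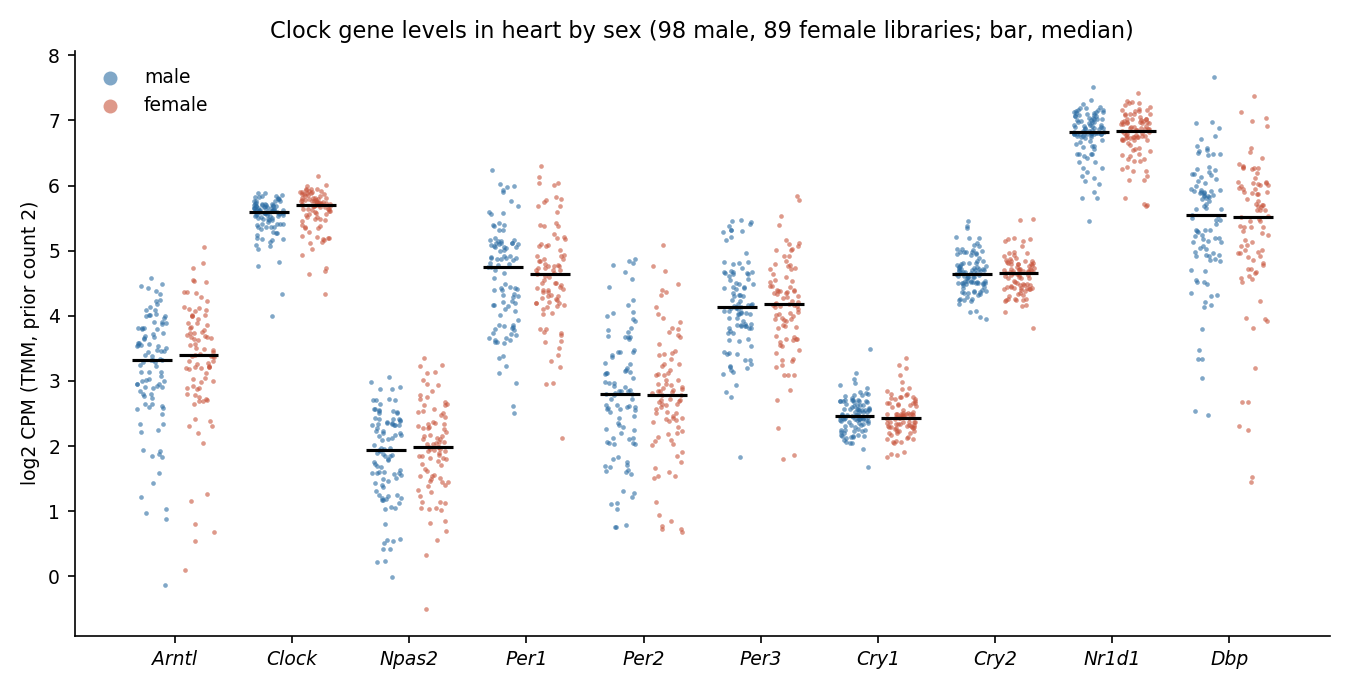
Level of each clock gene (log2 CPM, vertical axis) in every library, 98 male and 89 female, 1 point per library, with a bar at the median of each sex. The sexes overlap in all 10 genes, and the spread is widest for Dbp (SD 1.06) and narrowest for Cry1 (SD 0.28).

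Levels were set against each other on a scale per length, TPM (transcript abundance corrected for length and depth). By median TPM the order was Nr1d1 (48.1), Dbp (33.4), Cry2 (7.38), Clock (6.73), Per1 (6.27), Arntl (4.34), Per3 (3.85), Cry1 (2.05), Per2 (1.25) and Npas2 (1.16). Nr1d1 exceeded Dbp in 81.3% of libraries, and Dbp exceeded Cry2 in 97.3%. Further down, Per3 exceeded Cry1 in 87.2% and Cry1 exceeded Per2 in 73.3%, whereas Clock exceeded Per1 in 52.4%, Per2 exceeded Npas2 in 53.5% and Arntl exceeded Per3 in 56.1%. The step from Dbp to Cry2 was the only one between neighbours whose mean (29.7 TPM) was larger than its SD over libraries (20.7 TPM). Nr1d1 and Dbp thus stood above the other members, and which of the others led changed from heart to heart.

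Whether male and female hearts differed was asked first. No member passed the test (edgeR quasi-likelihood, Benjamini-Hochberg adjusted p under 0.05) and DESeq2 called none either, but Clock passed with library totals (edgeR adjusted p = 0.0118) and on both TPM scales (limma-trend adjusted p = 0.0135 and 0.0185). By the main test 25.4% of all genes passed, 13.3% higher in males and 12% higher in females. Arntl was at 10.5 ± 5.21 CPM (SD, n = 98) in males and 11.6 ± 6.12 (SD, n = 89) in females, a log2 difference, male minus female, of -0.15 ± 0.12 (SE) with adjusted p = 0.372 by edgeR. Clock was the member with an unadjusted p under 0.05, with 46.6 ± 7.84 against 49.7 ± 9.80 CPM, a log2 difference of -0.09 ± 0.04 (SE, edgeR p = 0.0318, adjusted p = 0.0995). The 95% intervals of all members lay between -0.38 and 0.33 on the log2 scale, so that larger mean differences of sex were outside them. For Cry1, Cry2 and Nr1d1 the intervals lay between -0.10 and 0.11.

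The pairwise relations of the activator and repressor arms were the strongest pattern of the clock genes. Npas2 and Clock were high where Arntl was high, and Per1, Per2, Per3, Cry2 and Dbp were low there. Of the 45 pairs of members, 43 were correlated over all libraries (two-sided permutation test of Pearson's r, adjusted over the 45 pairs), 20 positively and 23 negatively, with r from -0.87 to 0.88. The weakest called pair had an absolute r of 0.152, which 28.3% of the pairs of a member with any other gene reached as well, from 14.8% for Nr1d1 to 68.4% for Clock. The called pairs of Clock with Nr1d1 (r = -0.15, rank 10913 of 15941 by absolute r among the genes related to Clock), Cry2 (-0.28, rank 7488) and Per1 (-0.30, rank 7097) were thus near the background of Clock. The 2 other pairs were Clock with Cry1 (r = 0.14, adjusted p = 0.0533) and Cry1 with Cry2 (r = -0.10, adjusted p = 0.190). The mice of a strain share a genotype, so the libraries are not fully independent of each other.

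Within the activator arm all 3 pairs were positive. Arntl and Npas2 had r = 0.85 (Spearman's rho 0.85, each with permutation p = 1e-05, the smallest that 100000 permutations can give), and 0.86 without the 2 libraries farthest from the median of Arntl. Arntl and Clock had r = 0.64 and Clock and Npas2 r = 0.54. Arntl was the gene with the highest absolute correlation to Npas2 among all 15941 others, and Npas2 was the 4th for Arntl.

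Between the arms, 12 of 15 activator-repressor pairs were negative and called, and the others all involved Cry1. Arntl opposed Per3 with r = -0.87 (rho -0.89, both permutation p = 1e-05), and the value was -0.87 again without the 2 extreme libraries. It was -0.87 in males and -0.87 in females, and -0.89, -0.85 and -0.87 in the low, middle and high ranges of title numbers. Arntl opposed Per2 (r = -0.87, rho -0.88), Cry2 (r = -0.73, rho -0.68) and Per1 (r = -0.70, rho -0.68) in the same way, each with permutation p = 1e-05. Per2 and Per3 ranked 3rd and 2nd among all genes by their absolute correlation with Arntl. Taking out sex, depth, mtDNA-encoded share, scaling factor and the marker lists, 12 covariates in all, left Arntl at r = -0.88 with Per3, -0.87 with Per2 and 0.85 with Npas2. On log2(TPM + 1) the opposition to Arntl was weaker, with r = -0.70 for Per2, -0.64 for Per3, -0.46 for Per1 and -0.22 for Cry2, and that to the other activators was partly lost. There Clock was positively related to Per1 (r = 0.19) and Cry2 (r = 0.48), and Clock with Per2 (-0.0367) and Per3 (0.0309) and Npas2 with Cry2 (0.0166) did not pass.

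Within the repressor arm the Period genes and Cry2 rose and fell together, and Cry1 did not. Per2 and Per3 had r = 0.88 (rho 0.87), Per1 and Per2 0.84 (rho 0.81), Per3 and Cry2 0.79 (rho 0.78) and Per2 and Cry2 0.75 (rho 0.73), all with permutation p = 1e-05. Cry1 was negatively related to Per1 (r = -0.29), Per2 (r = -0.21) and Per3 (r = -0.37), but the sign of these 3 turned on log2(TPM + 1) (0.15, 0.14 and 0.0909) and in the low range of title numbers (0.0516, 0.16 and 0.15). Dbp followed the Period genes, with r = 0.87 to Per3 (rho 0.84), and opposed Arntl with r = -0.83 (rho -0.92). Nr1d1 was closest to Dbp (r = 0.73, rho 0.63) and opposed Cry1 (r = -0.69, rho -0.58), and among all genes tested Nr1d1 ranked 1st by absolute correlation with Cry1, and Cry1 ranked 2nd for Nr1d1, after Dbp. On log2(TPM + 1) the relation of Cry1 to Nr1d1 was not found (r = 0.0835, adjusted p = 0.281 by permutation), so that it depends on the scale.

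**Figure D2:**
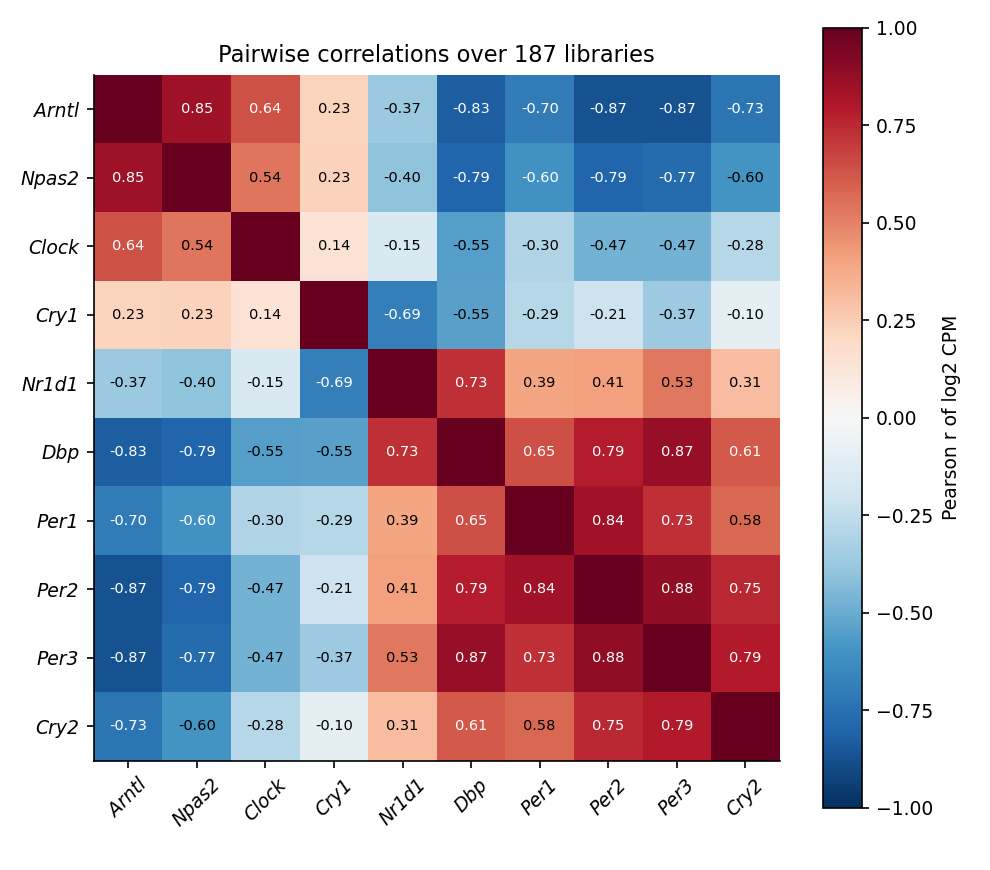
Pearson's r of log2 CPM for the 45 pairs of clock genes over all libraries, by colour, with genes ordered by arm. The activators form 1 positive block, Per1, Per2, Per3, Cry2, Dbp and Nr1d1 form another, the blocks oppose each other, and Cry1 stands with the activators at low r (0.14 to 0.23).

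Most of these relations were found in subsets of the hearts as well. In males 44 of the 45 pairs were called and in females 40, and in the low, middle and high ranges of title numbers 29, 39 and 43. Over the means of the 78 strains with both sexes 41 pairs were called. Over the male minus female difference within those strains, where what both mice of a strain share cancels, 37 pairs were called, with r from -0.86 to 0.85. Within strains, Arntl still opposed Per3 (r = -0.80) and accompanied Npas2 (r = 0.81), whereas its relation to Cry1 (r = 0.13, adjusted p = 0.275) and Nr1d1 (r = -0.14, adjusted p = 0.241) did not pass. On log2(TPM + 1) 37 pairs were called, and 11 pairs, each with Clock, Npas2 or Cry1 in it, took the other sign. The share of pairs with any other gene, 28.3% over all libraries on log2 CPM, was not counted in the subsets or on TPM. These counts of pairs therefore stand without a background. A first principal component, with 63.1% of the variance of the 10 scaled genes, carried Arntl, Npas2, Clock and Cry1 with positive and the other members with negative loadings, and a second, with 14.6%, mainly set Nr1d1 against Cry1 (loadings 0.58 and -0.67).

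How steeply each gene moved with Arntl was then fitted over all genes, with sex in the model. All 9 other members varied with Arntl, where 13% of all genes did, 5.78% rising and 7.2% falling with it. The members' median absolute slope was 0.579 log2 units per log2 unit of Arntl, against 0.0297 over all genes. Npas2 rose by 0.64 ± 0.03 (SE) and Clock by 0.21 ± 0.02. Per2 had a slope of -0.93 ± 0.04, Dbp -0.92 ± 0.05, Per3 -0.68 ± 0.03, Per1 -0.58 ± 0.04, Cry2 -0.24 ± 0.02 and Nr1d1 -0.15 ± 0.03. Cry1 had the smallest slope, 0.07 ± 0.02 (edgeR, adjusted p = 0.00822), and the largest adjusted p of the others was that of Nr1d1, 1.34e-05. These 2 calls were the less stable ones. With strain as a replicate block 7 of 9 members passed, without Cry1 (0.04, edgeR adjusted p = 0.726) and Nr1d1 (-0.07, adjusted p = 0.604), and on log2(TPM + 1) and log2(TPM + 0.1) Nr1d1 did not pass either (limma-trend adjusted p = 0.0939 and 0.248). Slopes were thus steepest for Per2 and Dbp, intermediate for Per3, Npas2 and Per1, and shallowest for the Cryptochromes, Clock and Nr1d1.

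The hearts at both ends of Arntl show the opposition directly. In the BALB/cJ male with 0.869 CPM of Arntl, Per2 was at 29.2, Per3 at 44.2, Dbp at 95.8 and Npas2 at 1.39 CPM. In the BXH6/TyJ female with 1.03 CPM of Arntl, Per2 was at 27.3, Per3 at 57.4 and Dbp at 120.3 CPM. The LP/J female, the third from the bottom with 1.42 CPM of Arntl, had 21.01 CPM of Per2, 54.9 of Per3 and 126.8 of Dbp. At the other end, the CXB12/HiAJ female with 33.4 CPM of Arntl had 1.67 CPM of Per2, 3.44 of Per3, 2.84 of Dbp and 10.2 of Npas2. The SM/J and C58/J females, next in Arntl, had 2.67 and 4.89 CPM of Dbp. Cry1, with a median of 5.43 CPM over all hearts, was at 6.83, 7.18 and 4.95 CPM in the 3 hearts of lowest Arntl and at 10.2, 9.16 and 9.42 CPM in the 3 of highest Arntl, so that 1 of the 6, the LP/J female, lay below the median.

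**Figure D3:**
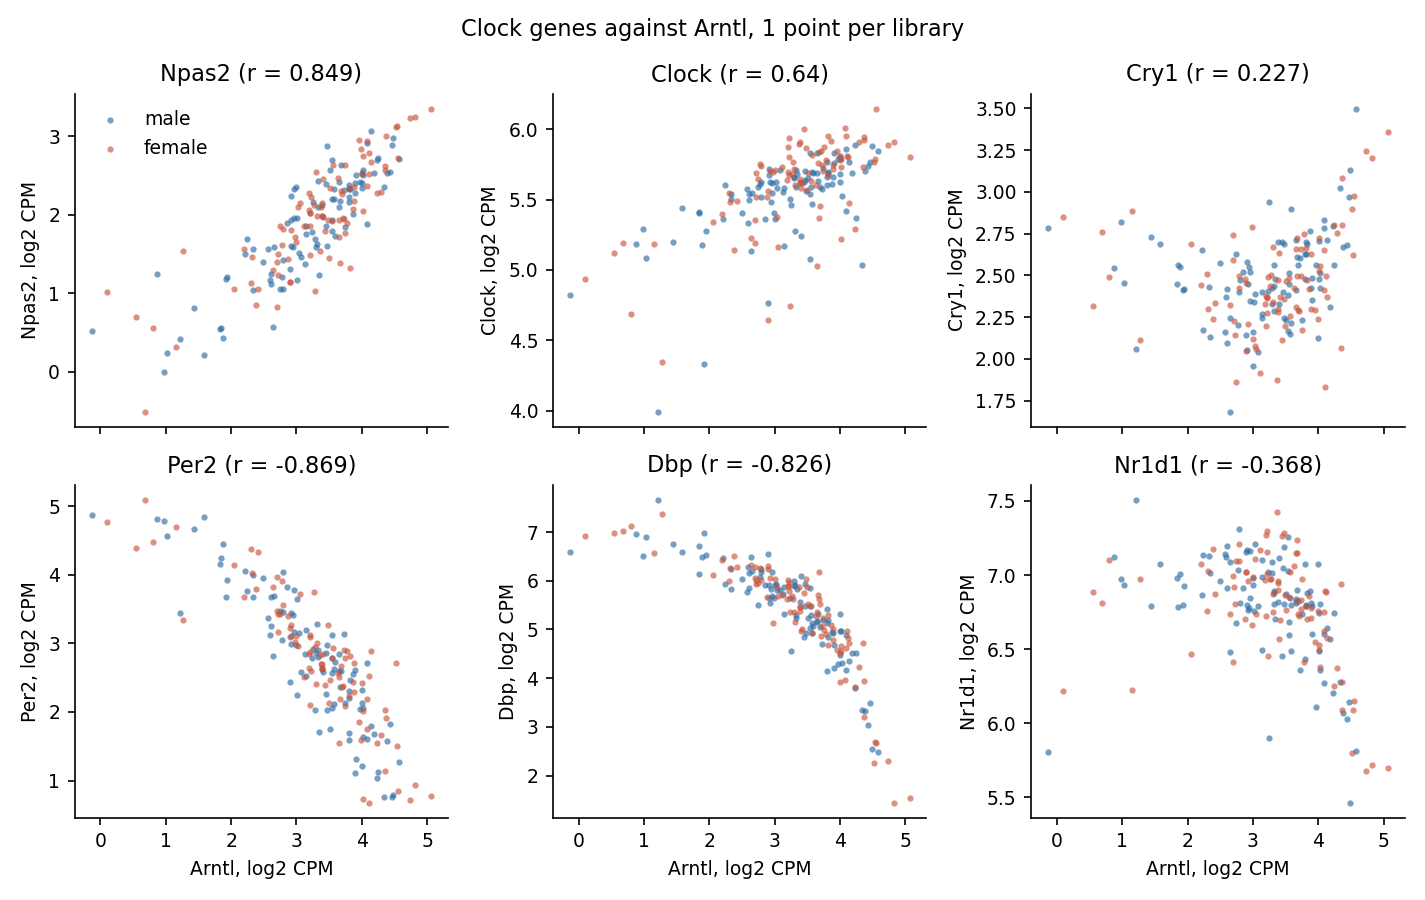
Level of 6 clock genes against Arntl (both log2 CPM), 1 point per library, males and females in different colours. Npas2 and Clock rise and Per2 falls along the range of Arntl, Dbp bends downward at high Arntl, and the points of Nr1d1 arch over the range of Arntl while those of Cry1 dip, with wide scatter.

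Cry1 and Nr1d1 related to Arntl more by a curve than by a line, as a description of these libraries. A line on Arntl held 5.13% of the variance of Cry1, and adding the square of Arntl brought it to 33.3%, with the lowest fitted Cry1 at an Arntl level of 5.35 CPM. For Nr1d1 the share went from 13.6% to 49.6%, with the highest fitted level at 4.88 CPM of Arntl. Dbp went from 68.2% to 84.8% and Per3 from 75.7% to 83.4%, and the other members gained 0.177 to 3.83 percentage points. The correlation of Arntl with Nr1d1 was 0.02 in the low range of title numbers and -0.63 and -0.60 in the middle and high ranges. Without the 2 libraries of most extreme Arntl in the low range it was -0.30 there (rho over all of them -0.17), so that the value near 0 rests on those 2. The correlation with Cry1 was -0.22, 0.51 and 0.52 in the 3 ranges, and -0.11 in the low range without the 2 libraries. The relation of Cry1 to Nr1d1 was negative in all 3 ranges (r = -0.44, -0.71 and -0.79). Once Arntl had been taken out by a line, Nr1d1 and Dbp had r = 0.82, Cry1 and Nr1d1 -0.67, Cry1 and Dbp -0.65, Per1 and Per2 0.65 and Per3 and Dbp 0.54, while Clock and Npas2 had -0.01. A line leaves in the curved part of Nr1d1, Cry1, Dbp and Per3. The r between these genes therefore still hold Arntl and do not show their relation at equal Arntl.

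Clock differed from the other members in how widely it was correlated. Its median absolute r to the 15932 genes that are no members was 0.262, and 1% of them exceeded 0.723. For the other members the median lay between 0.0685 and 0.131 and that 1% exceeded 0.286 to 0.419. Arntl ranked 1187th among the genes related to Clock, although Clock ranked 28th among those related to Arntl. Its levels moved with the fibroblast and cardiomyocyte marker lists, as given above. With the 12 covariates taken out, which include those lists, the r of Arntl with Clock was 0.77 instead of 0.64, that of Clock with Per3 -0.69 instead of -0.47 and that with Cry2 -0.52 instead of -0.28, and the median absolute r of Clock to genes that are no members was 0.178, against 0.0735 to 0.0994 for the other members.

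The slopes on Arntl were compared between the sexes by a term for their difference. It passed for 0.0376% of all genes (6 genes) and for no member, and 439 genes had an unadjusted p under 0.05. The differences in slope for the 9 members, male minus female, lay between -0.10 and 0.07, with SE from 0.033 to 0.105 and unadjusted p from 0.218 to 0.957 by edgeR.

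Differences between strains were tested next. Where a strain had both sexes, which held for 78 strains, 9 of the 10 members differed by strain (edgeR F test over all strain terms), where 73.5% of all genes did, so that the count is near the background. Npas2, Per2 and Cry2 had the largest F (2.37, 2.57 and 2.44), and Clock was the member that did not pass (F = 1.36, adjusted p = 0.105), although it did on log2(TPM + 1) (limma-trend F = 1.67, adjusted p = 0.0146). On log2 CPM after sex, strain held an adjusted 42.4% of the variance of Npas2, 39.8% of Dbp, 38.8% of Cry2, 36.9% of Per2, 35.7% of Arntl, 32.1% of Per3, 27.95% of Per1, 27.5% of Cry1, 26.1% of Nr1d1 and 21.9% of Clock. Most of the variance of each member therefore lay between the male and the female of a strain. The title number was not in this model. Of the 75 strains with 1 library of each sex, 21 had numbers at most 10 apart, so strain and number were not separated.

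The level in the male and in the female of a strain were correlated for 9 of the 10 members (permutation test, adjusted over the 10). Pearson's r over the 78 strains was 0.48 for Npas2, 0.43 for Dbp, 0.40 for Per2, 0.40 for Cry2, 0.38 for Arntl, 0.34 for Per3, 0.28 for Per1, 0.28 for Cry1 and 0.27 for Nr1d1. Clock had r = 0.22 (p = 0.0563). On log2(TPM + 1) Clock passed (r = 0.24, permutation test with adjusted p = 0.0397) and Cry1 did not (r = 0.16, adjusted p = 0.171), so that which 9 members passed depends on the scale. The median gene had r = 0.298 and 10% of genes exceeded 0.682, so that the members lay between the 34.8th and the 75.5th percentiles. Spearman's rho ran from 0.24 for Per1 to 0.40 for Dbp, and adjusted p for the 9 from 0.0001 to 0.0178. Without the 2 strains of most extreme male level, r ranged from 0.11 for Clock to 0.43 for Dbp. The title number was not taken out of these correlations either.

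Strains were ranked by the mean of the sexes among the 78 with both, and those at the ends were partly the same for several members. Strains with 1 sex were not ranked and could lie further out, as LP/J did (female, 1.42 CPM of Arntl and 54.9 of Per3). Among the ranked strains BXA2/PgnJ was lowest in Arntl (2.95 CPM in the male and 1.56 in the female) and in Npas2 (1.12 and 0.662). It was highest among them in Per2 (28.6 and 34.04) and Per3 (36.8 and 46.1). SM/J was among the highest in Arntl (21.5 and 28.2 CPM) and the lowest in Dbp (8.22 and 2.67), Cry2 (15.8 and 14.03) and Nr1d1 (65.2 and 52.6). Other strains with extreme means had sexes that differed, such as BALB/cJ with 0.869 CPM of Arntl in the male and 6.21 in the female, and C3H/HeJ with 55.7 and 139.3 CPM of Dbp. Each of these values is that of 1 mouse.

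**Figure D4:**
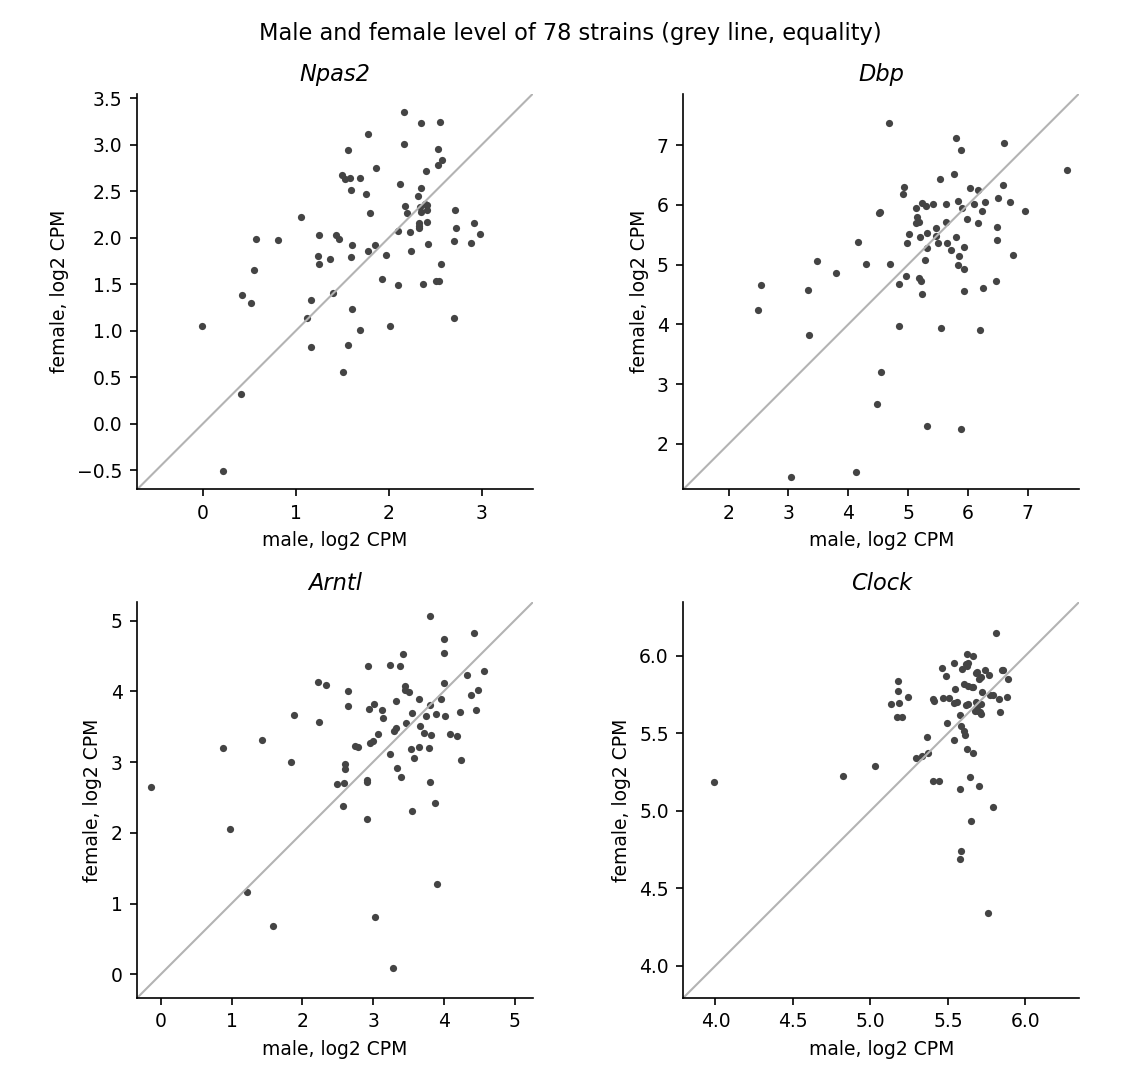
Male against female level (log2 CPM) of Npas2, Dbp, Arntl and Clock in the 78 strains with both sexes, 1 point per strain, with the line of equal levels in grey. The points follow the line loosely, with r of 0.48 for Npas2, 0.43 for Dbp, 0.38 for Arntl and 0.22 for Clock.

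How many members differed by strain family depended on the scaling. Of the 10, Per2 (edgeR F = 3.32, adjusted p = 0.0296) and Cry2 (F = 5.36, adjusted p = 0.00202) passed the test of BXD, AXB/BXA, CXB, BXH and other inbred strains, where 46.2% of all genes did. Adjusted p of the other members ran from 0.156 for Clock to 0.866 for Npas2. With library totals Clock passed as well (edgeR adjusted p = 0.0424), and on both TPM scales Clock, Per1, Cry1 and Nr1d1 did, which made 6 members, where 65.8% of all genes passed with library totals and 78% and 79.1% on the TPM scales, so that the larger counts are at or below the background. On the log2 CPM scale the mean level of Cry2 was 4.56 ± 0.24 (SD) in the 79 BXD libraries, 4.63 ± 0.23 in 33 of AXB/BXA, 4.65 ± 0.36 in 12 of CXB, 4.75 ± 0.36 in 55 of the other inbred strains and 4.80 ± 0.32 in 8 of BXH. That of Per2 was lowest in CXB (2.47 ± 1.39) and BXD (2.55 ± 0.86) and highest in the other inbred strains (3.07 ± 1.001). Levels overlapped between all families. With the number in the sample title added to the model, Cry2 passed (edgeR adjusted p = 0.00936) and Per2 did not (adjusted p = 0.145).

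The number in the sample title was related to most of the clock genes. Hearts with high numbers had more Arntl, Clock and Npas2 and less Per1, Per2, Per3, Cry2 and Dbp than hearts with low numbers. In edgeR with sex in the model, 8 of the 10 members had a trend in the title number, where 26% of all genes had one, 11.1% rising and 14.9% falling. Per 1000 numbers, Arntl rose by 0.48 ± 0.13 (SE) on the log2 scale, Npas2 by 0.53 ± 0.10 and Clock by 0.24 ± 0.05. Per2 fell by 0.75 ± 0.14, Dbp by 0.59 ± 0.15, Per3 by 0.44 ± 0.11, Per1 by 0.37 ± 0.12 and Cry2 by 0.19 ± 0.05. In this fit all 3 activators thus rose and 4 of the 5 repressors fell, but with strain as a replicate block no member was called, as given below. Cry1 (0.04 ± 0.05, adjusted p = 0.555) and Nr1d1 (-0.06 ± 0.06, adjusted p = 0.507) did not pass, and the trend of Nr1d1 took the other sign under library totals and on TPM. The trends of Cry2 and Per1 were lost under other scalings. Cry2 did not pass with library totals (edgeR adjusted p = 0.076), and on log2(TPM + 1) neither Cry2 (-0.06 ± 0.07, limma-trend adjusted p = 0.489) nor Per1 (-0.15 ± 0.11, adjusted p = 0.296) passed, which left 7 and 6 members.

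The numbers fell into 3 ranges, 4 to 393 (51 libraries), 521 to 763 (45) and 853 to 1527 (91), and the change lay mainly between the first and the others. Arntl had a mean of 8.41 ± 5.55 CPM (SD) in the low range, 11.7 ± 5.33 in the middle and 12.1 ± 5.50 in the high range. Per2 had 13.03 ± 8.53, 6.23 ± 3.12 and 7.11 ± 4.24 CPM. Dbp had 67.5 ± 37.1, 43.6 ± 22.7 and 44.97 ± 27.4 CPM. Levels overlapped widely between the ranges, from 1.65 to 34.04 CPM of Per2 in the low and from 1.60 to 21.01 CPM in the high range. Over all libraries r with the title number was 0.40 for Npas2 (rho 0.34), 0.39 for Clock (rho 0.42) and 0.34 for Arntl (rho 0.27), and -0.30 for Dbp (rho -0.27) and -0.29 for Per2 (rho -0.25), with permutation p of r and rho from 1e-05 to 0.00066. Without the 2 most extreme numbers these r were 0.38, 0.37, 0.31, -0.28 and -0.27. By permutation in males and females apart, r was 0.34 and 0.32 for Arntl (permutation p = 0.00061 and 0.0024) and -0.33 and -0.25 for Per2 (permutation p = 0.00094 and 0.0195), although for Per2 in females rho was -0.19 (permutation p = 0.075). In the edgeR fit Arntl passed in neither sex alone (adjusted p = 0.0944 in males and 0.115 in females), and Npas2, Per2 and Per3 passed in males and Clock, Npas2 and Per2 in females.

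With strain as a replicate block, the title number was tested between the mice of a strain. No gene of the 15942 then passed (1402 had an unadjusted p under 0.05 by edgeR), so that no member was called. The slopes of the members kept their sign, and that of Dbp was -1.23 ± 0.30 (SE, p = 0.000102, adjusted p = 0.272) against -0.59 without the block. Cry1 and Nr1d1, which had not passed, changed most in proportion, to 0.27 ± 0.09 (p = 0.00574) and -0.29 ± 0.12 (p = 0.0228). The others included -0.95 ± 0.29 for Per2, 0.55 ± 0.19 for Npas2 and 0.65 ± 0.26 for Arntl (adjusted p = 0.546 each). Low and high numbers also differed in other ways. Of the marker genes tested, 5 of 5 for adipocytes and 3 of 5 for fibroblasts rose with the number and none fell, against the 11.1% of all genes that rose. Of 5 for blood 3 fell and none rose, of 8 for cardiomyocytes 4 fell and 1 rose, against the 14.9% of all genes that fell, and of 5 for endothelium 3 rose and 1 fell. In the low, middle and high ranges the summed adipocyte genes ranged from 0.413 to 92, 0.463 to 97.1 and 0.575 to 867 CPM, and the fibroblast genes from 216 to 2043, 270.4 to 1267 and 301 to 1430 CPM. The blood genes ranged from 971 to 33425, 1020 to 23907 and 341 to 16349 CPM, and the cardiomyocyte genes from 43267 to 78013, 42759 to 88166 and 44766 to 78991 CPM. The medians of the 3 ranges were 5.02, 4.52 and 9.15 CPM for the adipocyte genes, 737, 757 and 888 for fibroblasts, 2876, 3089 and 2563 for blood and 59052, 57836 and 62214 for cardiomyocytes, so that the summed cardiomyocyte level was highest in the high range although 4 of its genes fell. No gene of these 4 lists was at 0 in every library, and their part in the trends was not tested. Strains were also spread unevenly over the numbers, with a median number of 906.5 in BXD males and 541.5 in males of other strains.

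**Figure D5:**
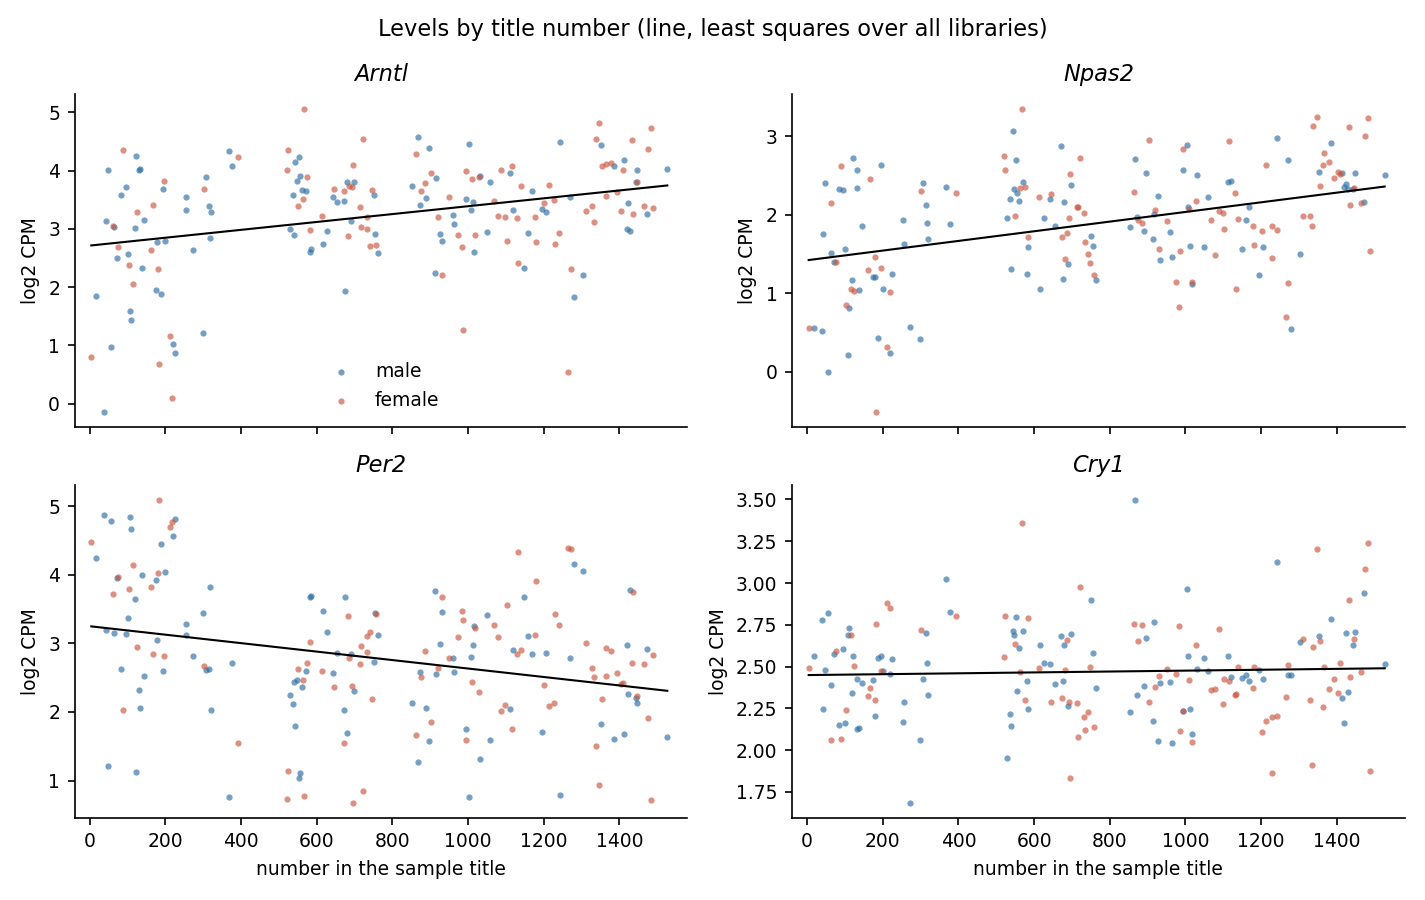
Level (log2 CPM) of Arntl, Npas2, Per2 and Cry1 against the number in the sample title, 1 point per library, with a least-squares line over all libraries. Arntl and Npas2 are lower and Per2 higher below number 393, with a wide spread at every number, and the trend of Cry1 did not pass the test.

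Hearts with neighbouring numbers were also alike. Over successive pairs of libraries in title order, the correlation of residuals after sex was 0.38 for Npas2, 0.37 for Arntl, 0.36 for Per2, 0.32 for Per3, 0.31 for Cry2, 0.26 for Clock and 0.25 for Dbp, all of which passed a permutation of the order adjusted over the 10 members (largest adjusted p = 0.000686). Per1 (0.15), Cry1 (0.12) and Nr1d1 (0.12) did not pass on log2 CPM, but on log2(TPM + 1) all 10 members did, these with 0.23, 0.28 and 0.30. The median gene had 0.26 on that scale, and these 3 lay between the 44.3rd and 58.6th percentiles. On log2 CPM the median gene had 0.142 and 10% of genes exceeded 0.339. Npas2, Arntl and Per2 lay at the 92.05th to 93.8th percentiles there, and Per3, Cry2, Clock and Dbp at the 77.6th to 87.8th. On log2(TPM + 1) Npas2, Arntl and Per2 lay lower, at the 67.3rd to 82.7th percentiles. The share of all genes that pass this permutation was not counted. After removal of the mean of each number range the values were 0.28 for Npas2, 0.29 for Arntl and 0.26 for Per2, and Clock no longer passed (0.15, adjusted p = 0.0549 by permutation). Without the successive pairs of 1 strain the values were 0.37 for Npas2, 0.36 for Arntl, 0.34 for Per2 and 0.19 for Dbp.

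The male and the female of a strain were compared by how far apart their numbers lay, over the 75 strains with 1 library of each sex. The absolute male minus female difference grew with the gap in numbers for Npas2 (r = 0.29), Dbp (0.28), Per3 (0.28), Per2 (0.28) and Nr1d1 (0.26), with permutation p of 0.0125 to 0.0231 and adjusted p of 0.0403 to 0.0462 over the 10 members. Over all genes tested the median r was -0.0272 and 10% of genes exceeded 0.108, and these 5 members lay at the 99.4th to 99.6th percentiles. Spearman's rho was 0.34, 0.19, 0.25, 0.44 and 0.28, and without the 2 widest gaps r was 0.29, 0.25, 0.22, 0.31 and 0.03, so that for Nr1d1 the relation rests on those strains. On log2(TPM + 1) none of the 5 passed (r = 0.22 to 0.27, permutation test with adjusted p = 0.0773 to 0.089). In 21 strains with numbers at most 10 apart the median difference of Per2 was 0.20 log2 units, and in 31 strains with numbers over 100 apart it was 1.06. For Arntl these medians were 0.29 and 0.72 (r = 0.21, rho 0.35, adjusted p = 0.114).

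The 3 repeated combinations of strain and sex show single mice of 1 genotype. The C57BL/6J males with numbers 17 and 1527 had 3.56 and 16.2 CPM of Arntl, 18.9 and 3.05 CPM of Per2 and 70.2 and 19.8 CPM of Dbp. The MA/MyJ males with numbers 254 and 255 had 11.6 and 9.91 CPM of Arntl, 8.62 and 9.69 CPM of Per2 and 57.6 and 60.5 CPM of Dbp. The CXB6/ByJ females with numbers 695 and 1228 lay between, with 17.1 and 11.2 CPM of Arntl and 1.56 and 4.34 CPM of Per2. The order of these gaps did not hold for every member, since Clock differed by 0.12 log2 units in the C57BL/6J males and by 0.20 in the MA/MyJ males, and Cry1 by 0.0488 and 0.12. Mice of 1 genotype and sex differed by up to 2.61 log2 units in Per2, and no test was made on 3 pairs.

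Other genes of the clock loop that are no members were examined against Arntl in the same fit. Of 13 such genes, 2 rose with Arntl, 6 fell and 5 did not pass. Ciart, a repressor of the activator pair, had a slope of -0.84 ± 0.04 (SE). Tef and Hlf, D-box factors related to Dbp, had -0.44 ± 0.02 and -0.43 ± 0.03, and Nr1d2, a relative of Nr1d1, had -0.32 ± 0.02. Nfil3, which competes with Dbp at D-boxes, had 0.36 ± 0.03. The largest edgeR adjusted p of these 5 was 1.19e-23. The median slope of the 13 genes was -0.0683, against -0.00322 over all genes. By contrast, of 27 kinases, ligases and chromatin factors that act on clock proteins none rose, 2 fell and 25 did not pass, where 13% of all genes passed. Those 2 were Usp2, a deubiquitinase (-0.35 ± 0.02), and Sirt1, an NAD-dependent deacetylase (-0.05 ± 0.02, adjusted p = 0.0410).

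Among 18 genes known as clock outputs in heart, 3 rose with Arntl, 6 fell and 9 did not pass, where 5.78% of all genes rose and 7.2% fell. Tcap, which encodes telethonin of the sarcomere Z-disc, had a slope of -0.46 ± 0.03 (SE) and levels from 230.0 through 684 to 3083 CPM. Wee1, a cell cycle kinase, had -0.33 ± 0.03, and Herpud1, of the response to unfolded proteins, had -0.19 ± 0.03. Cdkn1a, a cell cycle inhibitor, had 0.40 ± 0.06 and Pdk4, the kinase that shuts off pyruvate dehydrogenase, 0.32 ± 0.06. Of 9 fasting genes tested, 3 rose, none fell and 6 did not pass (against the same 5.78% and 7.2%), and those that rose were Angptl4 (0.41 ± 0.06), an inhibitor of lipoprotein lipase, Pdk4 and Ucp3 (0.13 ± 0.05). Pdk4 is in both lists.

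Genes that mark acute states of the animal were counted in the same fit, where 13% of all genes passed. Of 12 glucocorticoid-induced genes, with Per1 and Pdk4 among them, 1 rose, 8 fell and 3 did not pass, with a median slope of -0.127 and with -0.31 ± 0.06 (SE) for Zbtb16, -0.19 ± 0.02 for Tsc22d3 and -0.19 ± 0.06 for Mt2. Of 12 immediate early genes none rose, 6 fell and 6 did not pass (median slope -0.0962), led by Nr4a1 (-0.32 ± 0.07), Junb (-0.13 ± 0.04) and Btg2 (-0.12 ± 0.03). Of 10 temperature and heat shock genes 3 rose, 2 fell and 5 did not pass (median slope 0.0317), with 0.16 ± 0.03 for the chaperone Hsph1 and -0.06 ± 0.02 for the cold-induced Rbm3. None of the 13 mtDNA-encoded genes passed in the fit on Arntl. Of the marker genes in that fit, 2 of 5 for endothelium, 1 of 5 for adipocytes and 1 of 5 for fibroblasts rose. There 1 of 5 for lymphocytes and 1 of 8 for cardiomyocytes fell, and none for atrium, blood or skeletal muscle passed. With the title number, 8 glucocorticoid-induced, 7 immediate early and 4 mtDNA-encoded genes fell and none rose, where 14.9% of all genes fell and 11.1% rose. The median mtDNA-encoded share was 38.1%, 35.5% and 35.7% in the low, middle and high ranges. The part of these lists in the trends of the clock genes was not tested.

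The genes outside the members whose levels were most like those of Arntl and of Dbp were listed by Pearson's r over all libraries, as a description. For Arntl the highest were Leo1 (r = 0.81), Spon2 (0.78), Adamts4 (0.76), Fam124b (0.75) and Adam19 (0.72), and the lowest were Tef (-0.89), Ciart (-0.84), Usp2 (-0.82), Tspan4 (-0.80) and Ankrd12 (-0.70). For Dbp the highest were Tef (0.82), Usp2 (0.82), Tcap (0.81), Tspan4 (0.76) and Ciart (0.76), and the lowest were Nfil3 (-0.78), Ypel2 (-0.76), Adam19 (-0.71), Adamts4 (-0.69) and Spon2 (-0.65). By r the D-box factor Tef was closer to Arntl, in opposition, than any member, but by rho (-0.88) Dbp (-0.92), Per3 (-0.89) and, by a small margin, Per2 (-0.88) were closer.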

How the data were processed

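The authors prepared mRNA libraries from hearts of single mice, sequenced them as paired reads and quantified them with kallisto 0.46 against the GRCm38.p6 mouse transcriptome. The deposited values are estimated counts per Ensembl gene (not scaled, 34.2% of them not whole numbers) and TPM per gene, which the authors took from the same estimates. How transcripts were summed to genes is not given in the sources used here. Symbols and coordinates came from the GENCODE annotation of that build, in which 35856 of 36558 genes were found. Genes without a symbol held 0.486% of the counts and stayed in library sizes and tests under their identifiers. Counts were rounded. Depth was 28.99 M to 80.4 M per library.

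Genes passing filterByExpr by sex (15942) were scaled by TMM and tested with edgeR 4.0.16 in R 4.3.3 (quasi-likelihood F test), with Benjamini-Hochberg adjustment over all genes and a threshold of 0.05. Sex was tested with no covariates, and strain, strain family, title number and the Arntl level with sex in the model. Correlations used log2 CPM (prior count 2) and 100000 two-sided permutations (20000 for alternatives), adjusted over the 45 pairs or the 10 members. Alternatives were DESeq2 1.42.0, limma-trend (limma 3.58.1) on log2(TPM + 1) and log2(TPM + 0.1), other scaling and filters, subsets of libraries, covariates, and strain as a replicate block, where mice of 1 strain form a pair. Subsets by strain family, the sex by BXD test, curves and residual correlations were added after seeing the data. Permutation tests and tables were made with scipy 1.17.1, pandas 2.3.3 and numpy 2.4.6, and plots with matplotlib 3.10.9, under Python 3.11.15. Tested on simulated data with 200 of 15942 genes changed, the sex fit recovered 80% of log2 changes of 0.3 and 95% of 0.6 with 13 false calls, and the Arntl fit recovered 73% of slopes of 0.15 and 93% of 0.3 with 12 false calls.

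The members, the lists of other genes (clock loop, clock kinases and ligases, cardiac clock outputs, glucocorticoid, fasting, immediate early, heat shock, mtDNA-encoded and cell type markers) and the tests were chosen with earlier results of these data known. All 10 members are named, with up to 5 called genes of largest absolute slope on Arntl in each list other than markers, and, for Arntl and Dbp, the 5 other genes of highest and of lowest r with a mean of at least 1 CPM.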

Additional observations from a re-analysis of the deposited data

How the results depend on the processing

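Most results kept their direction and their side of the threshold. The count of members that differed by sex was 1 (Clock) with library totals, with log2(TPM + 1) and with log2(TPM + 0.1) and 0 in the main fit, where Arntl had -0.15 and Clock -0.09. These differences took the other sign in the low title-number range (Arntl 0.11, Clock 0.0479) and, for Arntl, in BXD strains (0.16). The cause was not tested. By scaling, genes higher and lower in males numbered 2127 and 1918 with TMM, 473 and 5544 with library totals and 234 and 6847 on log2(TPM + 1), and log2(TPM + 0.1) moved the median of all genes by -0.11 for sex and 0.11 for the title number. Shares of genes rising and falling with the title number were 11.1% and 14.9%, 11.8% and 2.11%, and 25.8% and 0.935% under the same 3 scalings, and with Arntl 5.78% and 7.2%, 19.7% and 4.96%, and 59.9% and 1.07%. Members that differed by strain family numbered 2, against 3 with library totals, 6 on log2(TPM + 1), 6 on log2(TPM + 0.1), 1 with the title number as covariate and 0 in females (fewer samples). Members with a title-number trend numbered 8, against 7 with library totals (without Cry2), 6 on log2(TPM + 1) and 6 on log2(TPM + 0.1) (without Cry2 and Per1, whose slopes were -0.19 and -0.37 in the main fit and -0.0598 and -0.15 on log2(TPM + 0.1)), and 3 in males and 3 in females alone (fewer samples each).

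With strain as replicate block, which pairs the mice of a strain, 0 members had a title-number trend and 7 of 9 varied with Arntl, where Cry1 (0.04, adjusted p = 0.726) and Nr1d1 (-0.07, adjusted p = 0.604) were lost and 2.45% of all genes passed. On both TPM scales 8 of 9 varied with Arntl, without Nr1d1 (-0.09, limma-trend adjusted p = 0.0939, and -0.05, adjusted p = 0.248). No other call on a member changed with the block. The uncalled title-number slope of Nr1d1 was -0.06, and 0.0072 with library totals, 0.0364 on log2(TPM + 1), 0.0371 on log2(TPM + 0.1) and 0.0386 in females, and that of Cry1 was -0.0134 in females.

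In the low title-number range the slope of Cry1 on Arntl was -0.0441, and r was -0.22 for Arntl with Cry1, 0.0177 for Arntl with Nr1d1 (-0.30 without the 2 libraries of most extreme Arntl), -0.0687 for Clock with Cry1, 0.0366 for Clock with Nr1d1, -0.13 for Npas2 with Cry1, 0.0516 for Per1 with Cry1, 0.16 for Per2 with Cry1, 0.15 for Per3 with Cry1 and 0.18 for Cry1 with Cry2. In the middle range r of Clock with Cry2 was 0.0803. On log2(TPM + 1), 11 pairs took the other sign, with r of 0.19 (Clock and Per1), 0.0309 (Clock and Per3), 0.48 (Clock and Cry2), 0.45 (Clock and Nr1d1), 0.0166 (Npas2 and Cry2), 0.0243 (Npas2 and Nr1d1), 0.15 (Per1 and Cry1), 0.14 (Per2 and Cry1), 0.0909 (Per3 and Cry1), 0.49 (Cry1 and Cry2) and 0.0835 (Cry1 and Nr1d1). Members correlated between the sexes of a strain numbered 4 in BXD strains alone (34 strains) against 9, members that differed by strain 10 on both TPM scales against 9, members alike at neighbouring numbers 10 on log2(TPM + 1) against 7, and those whose male-female difference grew with the number gap 0 on log2(TPM + 1) against 5. The cause was not tested.

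Limits are the single mouse per strain and sex, an hour of collection and a meaning of the title number that the labels do not give, and strains that were spread unevenly over the numbers. The lowest member counts were 30 for Npas2 and 42 for Arntl in a library, so that counting error is largest in single values of these genes. The effect of depth on the counts of calls was not tested.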

Other observations

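The sample means of males and females lay in opposite order in BXD and in other strains for several members. The split was chosen after the values had been seen, and the difference did not pass its test over all genes. Arntl was at 12.3 ± 5.56 CPM (SD, n = 40) in BXD males and 11 ± 4.61 (SD, n = 39) in BXD females, and at 9.17 ± 4.57 (SD, n = 58) and 12.1 ± 7.09 (SD, n = 50) in males and females of other strains. The male had more Arntl in 24 of 34 BXD strains and in 11 of 44 others, and more Dbp in 8 of 34 and in 32 of 44. Per3 was higher in the male in 7 of 34 and 31 of 44, and Cry1 in 27 of 34 and 18 of 44. The test of the difference itself (edgeR sex by BXD term) passed for no gene, and 219 of 15942 had an unadjusted p under 0.05. In that test Arntl had 0.56 ± 0.24 (SE, p = 0.0183, adjusted p = 0.9999) and Cry1 0.22 ± 0.08 (p = 0.00925, adjusted p = 0.9999). With strain as a replicate block, 9 of the 10 members had an unadjusted p under 0.05, as had 834 of the 15942 genes, and none passed the adjustment over all genes, with Per3 at -0.77 ± 0.17 (adjusted p = 0.107), Dbp at -1.003 ± 0.24 (adjusted p = 0.169) and Arntl at 0.72 ± 0.21 (adjusted p = 0.583). Median title numbers were 906.5 and 1010 in BXD males and females and 541.5 and 733 in those of other strains, and Arntl had 0.53 in a fit that held the title number as well. The part of the numbers in this pattern beyond that fit was not tested.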
